A study of Homo sapiens with 21 samples.

Results

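The RING-between-RING (RBR) ubiquitin ligases are the protein family to which parkin itself belongs, and 10 further genes of the family were followed across the clones: ARIH1, ARIH2, RNF14, RNF216, RNF19A, RNF19B, RNF144A, RNF144B, RNF31 and RBCK1. Members were taken by gene symbol from the annotation table of the array, with the brightest probe set of each gene, and all 10 were found among the 18374 genes that had a probe set with 1 symbol. The cells were U-87MG, an established human glioblastoma line, stably carrying parkin in the clones PK7, PK19 and PK25 or the empty vector in the clones V8, V17 and V22. Total RNA was measured on 21 Affymetrix whole-transcript arrays, 9 of parkin clones and 12 of vector clones, with 3 arrays for each clone and array series. The parkin clones and V22 were measured in what was read from the scanner file prefixes as the second series, and V8, V17 and V22 in the first. Each line is 1 clone, no untransfected cells were analysed here, and the promoter of the construct is not given in the sources used here. Levels of the transgene itself are not analysed here.

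RBR ligases join features of both large classes of ubiquitin ligase. Their first RING domain recruits an E2 enzyme loaded with ubiquitin, and the ubiquitin then passes to a catalytic cysteine in the last RING domain before it reaches the substrate. Most of them are held inactive by parts of their own chain, and each is switched on by its own partner: phosphorylated ubiquitin for parkin, neddylated cullin ligases for ARIH1 and ARIH2, and complex formation for RNF31.

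RNF144A and RNF144B are close relatives whose levels separated the clones in different ways, so the 250 bases before their annotated starts are shown. The sequences are from RefSeq on GRCh38.p14, plus strand, 5′ to 3′. Capitals mark GC boxes (GGGCGG, both strands) and a TATA box (TATAAA, both strands), which do not overlap.

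RNF144A, chr2:6917162-6917411: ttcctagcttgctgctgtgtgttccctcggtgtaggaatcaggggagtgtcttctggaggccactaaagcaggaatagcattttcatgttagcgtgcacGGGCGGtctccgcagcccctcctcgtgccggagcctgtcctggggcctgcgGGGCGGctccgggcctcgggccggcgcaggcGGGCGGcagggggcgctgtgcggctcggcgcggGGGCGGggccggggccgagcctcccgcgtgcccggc
RNF144A, second start, chr2:6932834-6933083: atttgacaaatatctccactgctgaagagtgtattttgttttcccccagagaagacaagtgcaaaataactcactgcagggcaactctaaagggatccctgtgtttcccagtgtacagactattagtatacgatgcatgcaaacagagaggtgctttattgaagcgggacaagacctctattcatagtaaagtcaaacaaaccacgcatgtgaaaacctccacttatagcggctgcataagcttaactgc
RNF144B, chr6:18387100-18387349: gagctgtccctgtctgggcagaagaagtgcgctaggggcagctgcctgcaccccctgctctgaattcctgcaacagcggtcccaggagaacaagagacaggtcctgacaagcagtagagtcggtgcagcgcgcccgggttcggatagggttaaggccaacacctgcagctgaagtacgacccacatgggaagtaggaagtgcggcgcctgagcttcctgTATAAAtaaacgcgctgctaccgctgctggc

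The first RNF144A window had 72% G and C, 26 CpG and 4 GC boxes, and the second had 42.4%, 4 CpG and no GC box. The RNF144B window had 59.6%, 13 CpG, no GC box and 1 TATA box. Over all 35116 windows of this length the median was 58% G and C with 11 CpG, 42.6% held a GC box and 10.7% a TATA box. Windows were found for 8 of the 10 members, 11 in all. Of these, 5 held a GC box, 3 a CCAAT box (CCAAT, 32% of all windows), and none the core ACGTG that hypoxia-inducible factors bind (18.5% of all windows). These matches are descriptions of the reference sequence.

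The arrays were deposited as RMA intensities and are given here as log2 values. Array medians lay between 6.21 and 6.37, and arrays correlated at 0.971 or above. The 6 markers of mesenchymal glioma (VIM, CD44, FN1, TNC, SPARC and CHI3L1) had means between 9.64 and 12.8, while 4 astrocyte markers lay at 3.68 to 8.24, with GFAP at 6.02 to 7.03 over the arrays. Marker levels moved with the clone. The mean of the 6 mesenchymal markers was 11.89 to 12.38 on PK7 arrays, and 11.51 to 11.79 on PK19 arrays, against 11.12 to 11.36 on V22 arrays of that series. PK25 arrays (11.08 to 11.67) overlapped V22, as did V8 arrays (11.36 to 11.59, against 11.49 to 11.53 on V22 arrays of the first series). Of the 6 mesenchymal markers, CHI3L1 ranged most widely over the arrays, 7.68 to 13.04, and its part in the mean was not tested. The mean of the 4 astrocyte markers lay below V22 in PK19 (5.42 to 5.61) and PK25 (5.31 to 5.57), against 5.67 to 5.72 on V22 arrays, and in V8 (5.29 to 5.43, against 5.63 to 5.72). The part of these shifts in the members' results was not tested. Gene means of blood (3 markers), epithelium (3) and endothelium (3) stayed at or below 5.33, and those of neurons (4) at or below 6.24. Each clone was compared with V22 of its own series in limma, so that no link between the series was needed. Nothing says that the arrays of 1 clone came from separate cultures, so p-values measure the spread between arrays, which may be technical. The comparisons of PK7, PK19 and PK25 share the same 3 V22 arrays, and those of V8 and V17 share 3 others.

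**Figure D1:**
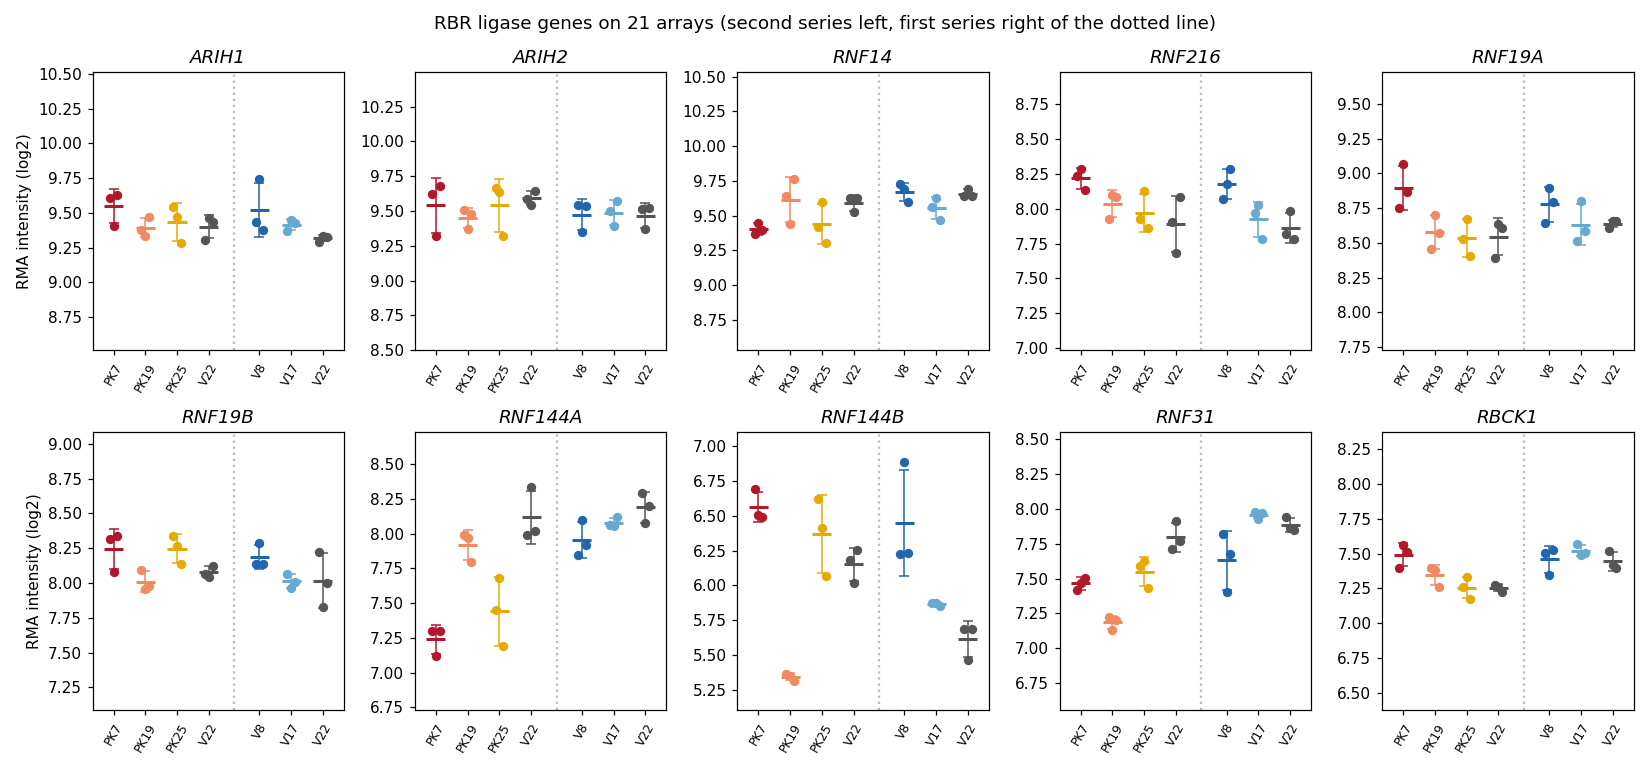
Log2 RMA intensity of the 10 members on each of the 21 arrays, by clone (points: arrays; horizontal bars: mean; whiskers: SD, n = 3). Each panel spans 2 log2 units. Against V22 of the same series, RNF144A was low in PK7 and PK25, and RNF144B was low in PK19 and high in V8. RNF31 was lowest in PK19.

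Of 50 differences from V22 (10 members in 5 clones), 7 passed an adjusted p of 0.05, and they belonged to 4 genes: RNF144A, RNF144B, RNF31 and RNF19A. In PK7, RNF19A rose and RNF31 and RNF144A fell, 3 of 10 members where 15.2% of all probe sets were called. In PK19, RNF31 and RNF144B fell, 2 of 10 where 14.0% of all probe sets were called. In PK25, RNF144A fell, 1 of 10 where 1.37% were called. In the vector clone V8, RNF144B rose, 1 of 10 where 8.00% were called. In V17 limma called no member and no probe set at all (0%), and 0 of 10 members had an unadjusted p under 0.05, where 2.71% of all probe sets did. No call reached a 2-fold change. The arrays of the clone and of V22 did not overlap for 7 members in PK7 (32.4% of all probe sets), 3 in PK19 (31.2%), 3 in PK25 (16.3%), 4 in V8 (24.3%) and 3 in V17 (8.71%). The median absolute log2 difference of the members was 0.282 in PK7, against 0.142 for all probe sets and 0.218 for genes with a mean log2 value above 7, as 9 of the 10 members have (not RNF144B). In PK19 it was 0.115, against 0.130 for all and 0.178 for those genes.

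**Figure D2:**
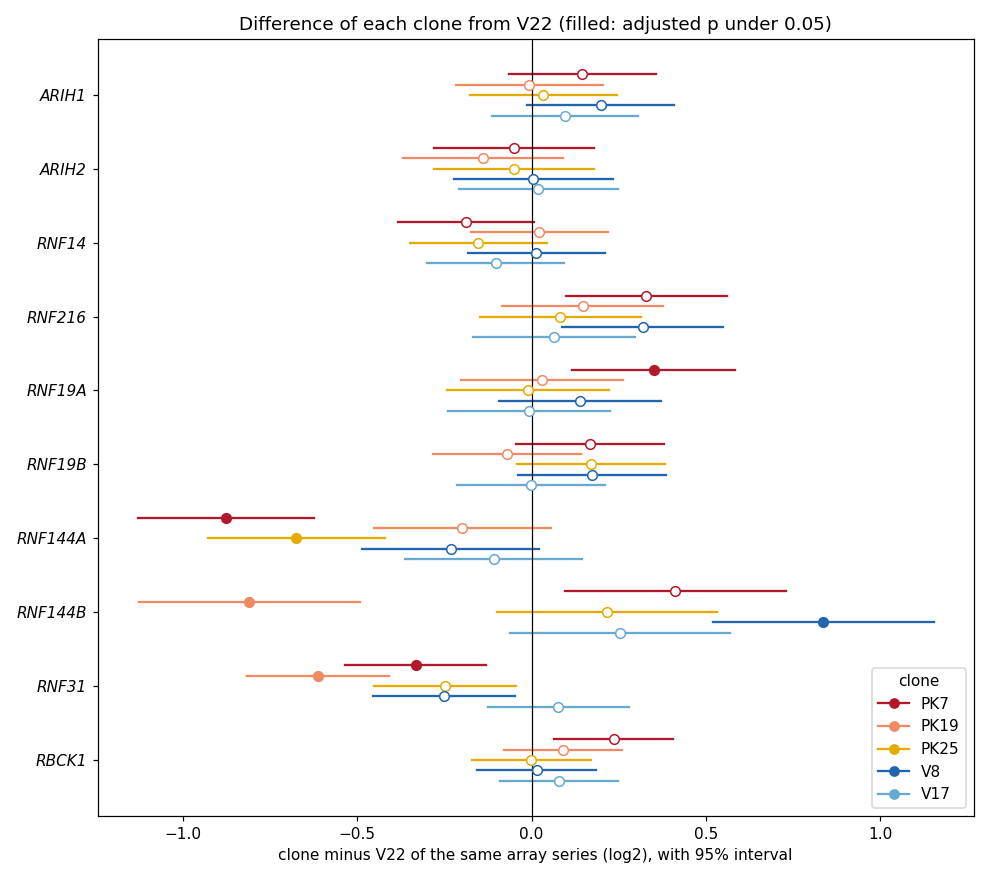
Log2 difference of each clone from V22 of the same array series for the 10 members (points), with 95% intervals from limma; filled points have an adjusted p under 0.05. The intervals of ARIH1, ARIH2, RNF14 and RNF19B include 0 in every clone, while RNF144B lies on both sides of 0.

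ARIH1 and ARIH2 add the first ubiquitin to substrates held by neddylated cullin ligases, ARIH1 with several cullins and ARIH2 with CUL5. ARIH1 was at 9.55 ± 0.12 in PK7, 9.39 ± 0.069 in PK19 and 9.43 ± 0.13 in PK25, against 9.40 ± 0.082 in V22 of that series (SD, n = 3 arrays each). In the first series it was at 9.52 ± 0.19 in V8 and 9.42 ± 0.041 in V17, against 9.32 ± 0.023 in V22. These groups overlapped, except that the V8 and V17 arrays lay above those of V22. The differences from V22 ran from -0.0066 in PK19 to 0.20 in V8, and limma called none of them (smallest adjusted p = 0.299, in V8). ARIH2 was at 9.54 ± 0.20 in PK7, 9.45 ± 0.072 in PK19 and 9.54 ± 0.19 in PK25, against 9.59 ± 0.052 in V22 (SD, n = 3 arrays each). The PK19 arrays of ARIH2 lay below those of V22, and the others overlapped. Its 5 differences ran from -0.14 in PK19 to 0.02 in V17, with adjusted p of 0.553 or more in limma. For ARIH2 the 95% interval of the PK7 difference was -0.28 to 0.18. The range of the 5 differences stood at the 7.09 percentile of all probe sets for ARIH2 and at the 14.9 percentile for ARIH1.

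RNF14 was first described as a coactivator of the androgen receptor, and RNF216 is a ligase with roles in Toll-like receptor turnover. RNF14 read 9.37, 9.45 and 9.40 on the PK7 arrays, 9.64, 9.44 and 9.76 on the PK19 arrays and 9.42, 9.60 and 9.30 on the PK25 arrays, against 9.63, 9.52 and 9.62 on the V22 arrays. The PK7 arrays lay below those of V22, and the PK19 and PK25 arrays overlapped them. The differences were -0.19 in PK7 (SE 0.094, adjusted p = 0.219), 0.02 in PK19 and -0.15 in PK25. In the first series the V17 arrays of RNF14 lay below those of V22 (-0.10, SE 0.094), and the V8 arrays overlapped them. The 50 nearest expressed genes on chromosome 5, by their median on each array, differed by -0.205 in PK7, 0.043 in PK19 and -0.165 in PK25. RNF216 read 8.24, 8.29 and 8.13 in PK7, 7.92, 8.10 and 8.09 in PK19 and 7.93, 8.12 and 7.86 in PK25, against 7.90, 7.68 and 8.08 in V22. The PK7 arrays lay above those of V22 by 0.33 (SE 0.11, adjusted p = 0.0503), just outside the threshold. In the vector clone V8 the RNF216 difference from V22 was 0.32 (SE 0.11, adjusted p = 0.0908), of about the same size as in PK7.

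RNF19A (dorfin) is known for ubiquitinating mutant SOD1, and RNF19B for its role in the killing activity of natural killer cells. RNF19A read 8.75, 9.07 and 8.86 on the PK7 arrays, 8.45, 8.70 and 8.57 on the PK19 arrays and 8.53, 8.67 and 8.40 on the PK25 arrays, against 8.39, 8.64 and 8.61 on the V22 arrays. The PK7 arrays lay above those of V22, and the PK19 and PK25 arrays overlapped V22. The rise in PK7 was 0.35 (SE 0.11, limma adjusted p = 0.0376), a fold of 1.27. It was called in 6 of 16 alternative settings, with adjusted p from 0.0199 to 0.258, and was lost without V22 set 4 (0.27, adjusted p = 0.189), V22 set 6 (0.0625), PK7 set 2 (0.26, 0.185) or PK7 set 3 (0.0668). The 50 nearest expressed genes on chromosome 8, by their median on each array, differed by 0.14 in PK7 and 0.14 in V8, where RNF19A stood at 0.14. RNF19B was at 8.25 ± 0.14 in PK7, 8.01 ± 0.076 in PK19 and 8.25 ± 0.10 in PK25, against 8.08 ± 0.042 in V22 (SD, n = 3 arrays each). It stood 0.17 above V22 in PK7, PK25 and V8 alike and at -0.07 in PK19, and limma called none (adjusted p 0.342 to 0.803).

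RNF144A encodes a membrane-anchored ligase that targets the DNA repair kinase DNA-PKcs. It read 7.30, 7.12 and 7.30 on the PK7 arrays, 7.99, 7.97 and 7.79 on the PK19 arrays and 7.45, 7.68 and 7.19 on the PK25 arrays, against 7.99, 8.34 and 8.02 on the V22 arrays. Each PK7 and PK25 array lay below each V22 array, and PK19 overlapped V22. RNF144A fell by 0.88 in PK7 on the log2 scale (SE 0.12, limma adjusted p = 3.43e-05), to 0.545 of the V22 level. In PK25 it fell by 0.67 (SE 0.12, adjusted p = 0.00643), to 0.627 of that level, and in PK19 the difference was -0.20 (SE 0.12, adjusted p = 0.385).

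In the order of levels within the second series, PK7 and PK25 stood lowest and did not differ beyond their spread (-0.20, SE 0.12, adjusted p = 0.335), followed by PK19 and V22. PK19 exceeded PK25 by 0.48 (SE 0.12, adjusted p = 0.0098). In the first series RNF144A read 7.85, 8.10 and 7.92 in V8 and 8.06, 8.06 and 8.12 in V17, against 8.29, 8.07 and 8.20 in V22. Both groups overlapped V22, with differences of -0.23 in V8 (adjusted p = 0.318) and -0.11 in V17. The PK7 call held in 15 of 16 alternative settings, the exception being the added 2-fold requirement. The PK25 call held in 14 of 16, and was lost with that requirement and without V22 set 5, the highest V22 array (-0.56, adjusted p = 0.055).

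RNF144B is a target gene of p53 in human cells, and its product acts on the cell death protein BAX. It had the widest range of the members, 1.65 log2 units between its lowest and highest clone difference, at the 98 percentile of all probe sets. The probe set was also the dimmest member, with a mean of 6.05 that lies below the array medians. RNF144B read 6.69, 6.51 and 6.49 on the PK7 arrays, 5.36, 5.35 and 5.32 on the PK19 arrays and 6.62, 6.41 and 6.07 on the PK25 arrays, against 6.18, 6.02 and 6.25 on the V22 arrays. PK19 lay below every other array of that series, PK7 above every V22 array, and PK25 overlapped V22.

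RNF144B fell by 0.81 in PK19 (SE 0.15, limma adjusted p = 6.5e-04), to 0.571 of the V22 level, and the differences were 0.41 in PK7 (SE 0.15, adjusted p = 0.0749) and 0.22 in PK25 (adjusted p = 0.641). In the first series it read 6.23, 6.89 and 6.24 in V8 and 5.88, 5.87 and 5.85 in V17, against 5.69, 5.46 and 5.69 in V22. It rose by 0.84 in V8 (SE 0.15, adjusted p = 0.00114), a fold of 1.79, and differed by 0.25 in V17 (adjusted p = 1). The 3 V22 arrays of the second series all lay above the 3 V22 arrays of the first, by 0.54 (SE 0.15, unadjusted p = 0.00205, adjusted p = 0.261). No other member differed as much between the V22 series, and limma called 0 of 10 members in that comparison, where 0.0297% of all probe sets were called. At an unadjusted p under 0.05 there were 2 of 10, RNF144B and RBCK1, where 8.75% of all probe sets passed.

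RNF31 (HOIP) is the catalytic subunit of the linear ubiquitin chain assembly complex, in which RBCK1 (HOIL-1) and SHARPIN are the other subunits. The complex builds head-to-tail ubiquitin chains in NF-kB signalling. RNF31 read 7.42, 7.47 and 7.51 on the PK7 arrays, 7.22, 7.13 and 7.20 on the PK19 arrays and 7.59, 7.63 and 7.43 on the PK25 arrays, against 7.71, 7.91 and 7.77 on the V22 arrays. The arrays of each parkin clone lay below those of V22, PK19 lowest. RNF31 fell by 0.61 in PK19 (SE 0.097, limma adjusted p = 1.13e-04), to 0.654 of the V22 level, and by 0.33 in PK7 (SE 0.097, adjusted p = 0.0227), and the PK25 difference was -0.25 (adjusted p = 0.301). Leaving out 1 array ended the PK7 call for V22 set 5 (-0.27, adjusted p = 0.113), V22 set 6 (0.0516), PK7 set 1 (0.0734) or PK7 set 2 (0.0508). The PK7 call held in 7 of 16 alternative settings, and averaging the 2 probe sets of RNF31 gave -0.22 (adjusted p = 0.0775).

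In the first series RNF31 read 7.82, 7.40 and 7.67 in V8 and 7.98, 7.93 and 7.97 in V17, against 7.94, 7.86 and 7.85 in V22. The V8 arrays lay below those of V22 (-0.25, adjusted p = 0.136), as far as in PK25, and V17 overlapped V22. A second RNF31 probe set, with a mean of 6.19, differed by -0.11 in PK7, -0.18 in PK19 and -0.03 in PK25, and limma called none of these (adjusted p 0.334 to 0.95). RBCK1 read 7.40, 7.56 and 7.51 in PK7, 7.39, 7.38 and 7.26 in PK19 and 7.26, 7.33 and 7.18 in PK25, against 7.28, 7.26 and 7.23 in V22. It differed by 0.24 in PK7 (SE 0.081, adjusted p = 0.0572), with the arrays apart, by 0.09 in PK19 and by -6e-04 in PK25. V22 itself differed by -0.19 between the series for RBCK1 (unadjusted p = 0.0315, adjusted p = 0.52).

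The F test of limma asked whether the 3 parkin clones differed from each other. It called RNF144B (adjusted p = 7.4e-06), RNF144A (7.6e-04), RNF31 (0.0181) and RNF19A (0.0364), 4 of 10 members where 23.6% of all probe sets were called. With the set number as a block, RNF31 (adjusted p = 0.0825) and RNF19A (0.0669) lost the call. PK7 exceeded PK19 by 1.22 for RNF144B, a fold of 2.33 (SE 0.15, adjusted p = 7.75e-06), and lay below it by 0.68 for RNF144A (log2 difference -0.68, SE 0.12). PK19 lay below PK25 for RNF144B (-1.03, SE 0.15) and for RNF31 (-0.36, SE 0.097, adjusted p = 0.013). PK7 exceeded PK25 for RNF19A (0.36, SE 0.11, adjusted p = 0.0353). The pairwise calls were 2 of 10 members for PK7 against PK19 (15.8% of all probe sets), 1 for PK7 against PK25 (13.9%) and 3 for PK19 against PK25 (14.9%).

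Parkin and vector clones were then compared with the clone as the replicate, after the first series had been shifted to the second through V22. Limma called none of the 10 members (0.00371% of all probe sets were called). At an unadjusted p under 0.05 there were 2, RNF144A and RNF31, where 14.1% of all probe sets passed. RNF144A averaged 7.53 ± 0.35 in parkin clones and 8.00 ± 0.12 in vector clones (SD, n = 3 clones each), a log2 difference of -0.47 (SE 0.18, limma adjusted p = 0.335). RNF31 averaged 7.40 ± 0.19 in parkin clones and 7.74 ± 0.17 in vector clones (SD, n = 3 each), a difference of -0.34 (SE 0.13, adjusted p = 0.339). RNF144B averaged 6.09 ± 0.66 in parkin clones and 6.51 ± 0.43 in vector clones (SD, n = 3 each), a difference of -0.42 (SE 0.36, adjusted p = 0.587). The RNF144B difference stood at -0.06 against V22 of the second series alone and at 0.11 against vector arrays of the first series without the shift. V17 and V22 were hardly apart over all probe sets (0% called, 2.71% at an unadjusted p under 0.05), so n = 3 may overstate the vector clones. With V17 and V22 taken as 1, vector means were 7.97 ± 0.13 for RNF144A, 7.69 ± 0.20 for RNF31 and 6.63 ± 0.50 for RNF144B (SD, n = 2). How far V17 and V22 are independent was not tested.

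After the shift, ARIH2 was the only member whose clone means did not overlap, where 23.1% of all probe sets did not overlap. It averaged 9.51 ± 0.051 in parkin clones and 9.60 ± 0.010 in vector clones (SD, n = 3 each). The difference was -0.09 (limma adjusted p = 0.544). The shift for ARIH2, V22 of the second minus V22 of the first series, was 0.12 (SE 0.11). Before it, V8 (9.47) and V17 (9.49) lay between PK19 (9.45) and PK7 (9.54), so the clone means overlapped. The remaining 6 members differed by -0.08 (RNF14) to 0.08 (RNF19A), with adjusted p of 0.673 or more. The vector clone means share the V22 link, so these standard errors do not hold all of the error. Taking V17 and V22 as 1 gave a vector mean of 9.60 ± 0.0033 for ARIH2 (SD, n = 2). In a bulk RNA sample, a lower level in each cell and loss of the transcript from part of the cells cannot be told apart.

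The difference of each member from V22 was set beside that of its 50 nearest expressed genes on the chromosome. RNF31 lies on chromosome 14, and its neighbours from ARHGEF40 to SRP54 had median differences of -0.29 (PK7), -0.76 (PK19), -0.25 (PK25) and -0.20 (V8), beside -0.33, -0.61, -0.25 and -0.25 for RNF31 itself. In PK19, 48 of 50 of these neighbours were below V22, and 30 of 50 lay lower than RNF31. For the subtraction, the median over the neighbours was taken on each array, so it differs slightly from the medians of differences given here. With it, RNF31 stood at 0.12 in PK19 (adjusted p = 0.467) and -0.07 in PK7 (adjusted p = 0.66).

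RNF144A lies on chromosome 2, where the neighbours from FAM110C to SF3B6 had medians of -0.35 in PK7, -0.03 in PK19 and -0.03 in PK25. None of the 50 lay lower than RNF144A in PK25, and 4 of 50 did in PK7. With the subtraction its difference was -0.56 in PK7 and -0.64 in PK25, and limma called both. RNF144B lies on chromosome 6, with 14 histone genes among its 50 nearest expressed genes, and the neighbours given here are the 50 nearest with histone genes left out. The medians of these neighbours, from FARS2 to ABCF1, stood at -0.60 (PK7), -0.74 (PK19), -0.05 (PK25) and -0.48 (V8). Of them, 49 of 50 lay lower than RNF144B in PK7, 21 of 50 in PK19 and 50 of 50 in V8. After the subtraction it was at 0.97 in PK7 (adjusted p = 1.55e-05), -0.09 in PK19 (adjusted p = 0.725) and 1.29 in V8. The levels of genes in these regions moved with the clone, and their part in the members' differences was not tested beyond this subtraction.

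**Figure D3:**
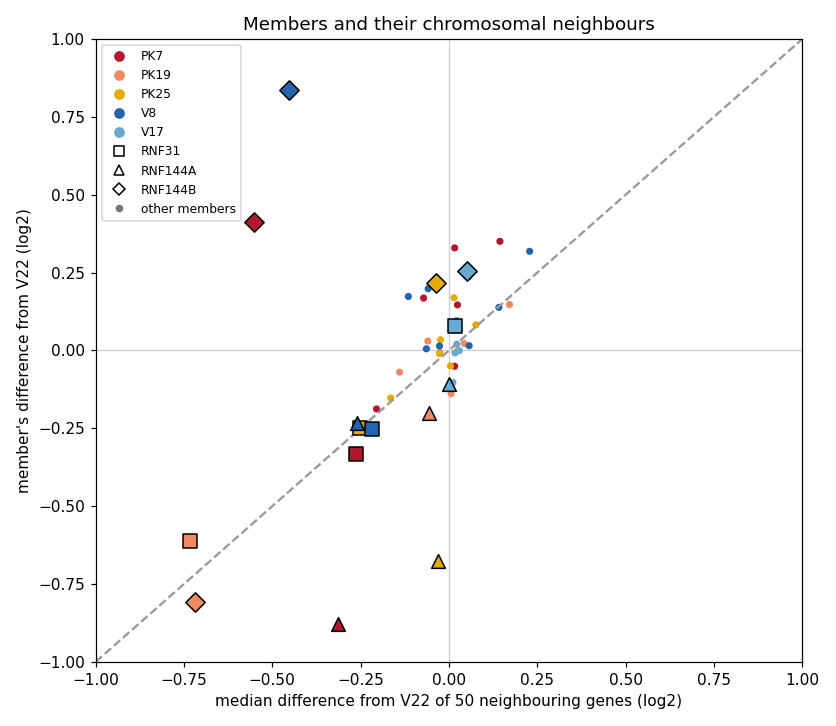
Log2 difference from V22 of each member (vertical axis) against that of the median of its 50 neighbouring expressed genes, taken on each array with histone genes left out (horizontal axis), in 5 clones; the dashed line marks equal values. RNF31 lies near the line, RNF144A below it in PK7 and PK25, and RNF144B far above it in PK7 and V8.

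For the 3 members with the widest range, the genes with the most similar pattern were sought over the 21 arrays after subtraction of V22 of the series, among 11494 genes. For RNF144A these were SLC25A40 (r = 0.935), XPNPEP3 (0.914) and ZCCHC4 (0.91), on chromosomes 7, 22 and 4. For RNF144B they were SSPN (0.934), PBX3 (0.924) and ZMYM6 (0.912), on chromosomes 12, 9 and 1. For RNF31 they were MTG1 (0.951), METTL17 (0.938) and VCL (0.937), of which METTL17 lies on chromosome 14 as RNF31 does. These are the highest of many correlations, and the arrays share clones and series.

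Of other RBR genes, CUL9, whose product binds p53 in the cytoplasm, RNF217 and ANKIB1 were measured. CUL9 read 6.45, 6.68 and 6.52 in PK7 and 6.70, 6.87 and 6.61 in PK19, against 7.12, 7.29 and 7.12 in V22. It fell by 0.63 in PK7 (SE 0.11, adjusted p = 3.1e-04) and by 0.45 in PK19 (SE 0.11, adjusted p = 0.00591), and by 0.41 in the vector clone V8 (SE 0.11, adjusted p = 0.0213). In PK25 it stood at 0.04. CUL9 lies on chromosome 6, as do RNF217 and RNF144B. The neighbours of RNF144B there had medians of -0.60 (PK7), -0.74 (PK19), -0.05 (PK25) and -0.48 (V8). Whether CUL9 and RNF217 moved with their own neighbours was not tested. RNF217 fell in PK19 (-0.65, SE 0.16, adjusted p = 0.00731), and ANKIB1 was not called in any clone (adjusted p 0.24 to 1). Among all probe sets, 8.11% were lower in PK7, while 14.0% in PK19 and 8.00% in V8 were called in either direction.

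Further genes read, cut or carry linear ubiquitin. Of 8 measured, 3 rose in PK7 (where 7.11% of all probe sets were higher), 5 in PK19 (6.65%) and 2 in the vector clone V8 (3.78%). None rose in PK25, where 1.37% of all probe sets were called in either direction. CYLD, a deubiquitinase of linear chains, rose in PK19 (0.32, SE 0.10, adjusted p = 0.0457) and fell in PK25 (-0.50, SE 0.10, adjusted p = 0.0189), where 0.939% of all probe sets were lower. Median differences over the list came to 0.21 for PK7, 0.51 for PK19, 0.09 for PK25 and 0.24 for V8, where the median of all probe sets was between -0.003 and 0.019. TNFAIP3 (A20), which restrains NF-kB and is itself an NF-kB target, read 8.48, 8.45 and 8.50 in PK7 and 6.76, 7.89 and 6.98 in PK19, against 6.36, 6.32 and 6.04 in V22. It rose by 2.23 in PK7 (SE 0.24, adjusted p = 1.33e-06) and 0.97 in PK19 (adjusted p = 0.00655), stood at 0.11 in PK25, and rose by 1.37 in V8 (adjusted p = 7.2e-04).

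OPTN, a ubiquitin-binding autophagy receptor, read 8.80, 9.37 and 8.86 in PK7, 9.24, 9.56 and 9.27 in PK19 and 8.80, 9.11 and 8.61 in PK25, against 8.32, 8.00 and 8.41 in V22. The arrays of each parkin clone lay above those of V22. OPTN rose by 0.76 in PK7 (SE 0.15), by 1.11 in PK19 and by 1.02 in V8, and the difference of 0.60 in PK25 had an adjusted p of 0.0588. TAX1BP1, another such receptor, rose by 0.70 in PK19 (SE 0.12, adjusted p = 3.0e-04). TNIP1, a partner of A20, rose by 0.82 in PK7 (SE 0.18, adjusted p = 0.00321) and by 0.98 in PK19 (SE 0.18). SHARPIN, the remaining subunit of the complex, differed by 0.09 (PK7), 0.04 (PK19), 0.07 (PK25) and 0.02 (V8), with adjusted p of 0.695 or more.

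**Figure D4:**
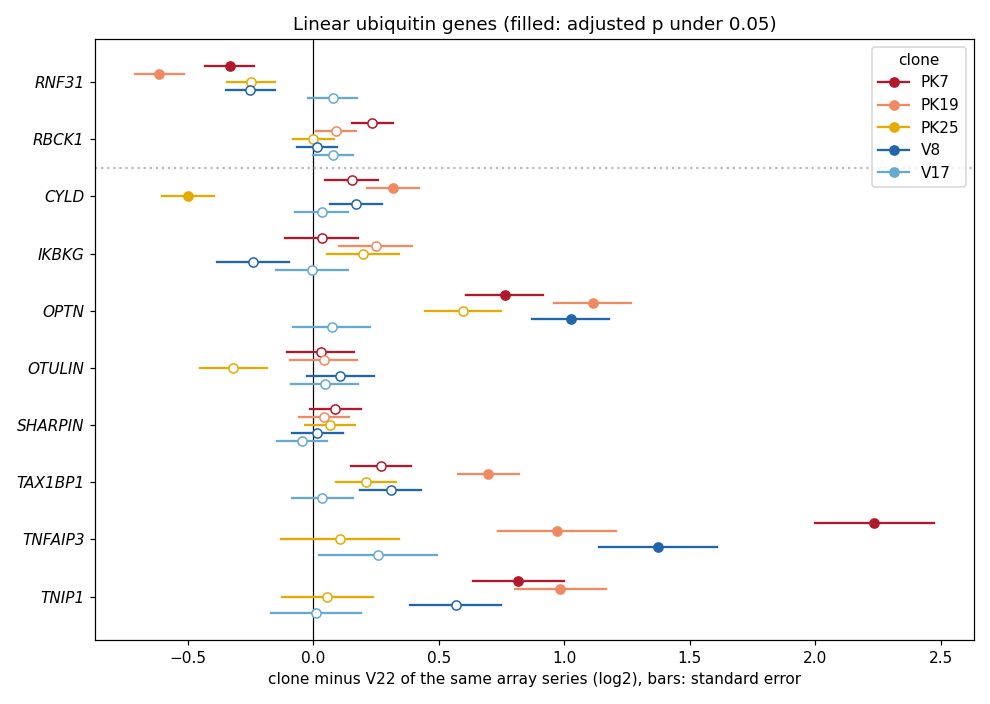
Log2 difference from V22 of the same series for RNF31 and RBCK1 (above the dotted line) and 8 genes of linear ubiquitin signalling, in 5 clones (points, with standard errors; filled: adjusted p under 0.05). RNF31 is below 0 and TNFAIP3, OPTN and TNIP1 are above 0 in PK7, PK19 and V8, and SHARPIN stays near 0.

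Of 5 measured E2 enzymes, which load the ligases with ubiquitin, UBE2K fell in PK7 (-0.54, SE 0.11, adjusted p = 0.00154) and in PK25 (-0.81, SE 0.11, adjusted p = 4.7e-04) and stood at 0.0043 in PK19. Among all probe sets, 8.11% were lower in PK7 and 0.939% in PK25. UBE2N, an E2 of NF-kB and DNA damage signalling, rose in V8 (0.48, SE 0.11, adjusted p = 0.00781), where 3.78% of all probe sets were higher. UBE2L6 was called in no clone. Of 8 cullins and RING partners, the platforms on which ARIH1 and ARIH2 work, CUL1 (-0.34, SE 0.097, adjusted p = 0.0194) and RBX1 (-0.60, SE 0.11, adjusted p = 4.5e-04) fell in PK7, where 8.11% of all probe sets were lower. CUL4B fell in PK19 (-0.79, SE 0.096, adjusted p = 5.53e-06), where 14.0% of all probe sets were called. No cullin or RING partner was called in PK25, where 1.37% of all probe sets were called. In V8, where 8.00% were called, CUL2 rose (0.51, SE 0.13, adjusted p = 0.0174). CUL4A fell there (-0.84, SE 0.099, adjusted p = 1.51e-05), the largest difference in this list. CUL4A lies on chromosome 13, as does the neddylation gene DCUN1D2, whose V8 arrays lay below those of V22 (-0.45, adjusted p = 0.104). Whether the listed genes moved with their chromosomal neighbours was not tested. Of 9 neddylation genes, DCUN1D3 rose in PK7 (0.45, SE 0.095, adjusted p = 0.00221), where 7.11% of all probe sets were higher. DCUN1D2 rose in PK19 (0.51, SE 0.16, adjusted p = 0.0389), where 6.65% were higher. A count of 1 in 9 is near these shares. No neddylation gene was called in PK25 (1.37% of all probe sets called) or V8 (8.00%). COPS5, a deneddylase subunit, differed by -0.28 in PK19 (adjusted p = 0.0516). In the comparison of parkin with vector clones, limma called none of the genes in these 5 lists, where 0.00371% of all probe sets were called.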

How the data were processed

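Per the submitters' processing notes, the deposited intensity values were made with RMA, whose version is not given in the sources used here, and the authors gave them on a linear scale. No source used here says whether 1 RMA run covered both series. The log2 of each value was taken, with no filter and no pseudocount. Gene symbols are those of the platform annotation, updated through gene IDs. Chromosomes and gene order are those of RefSeq on GRCh38.p14. Levels of different probe sets are not compared.

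Limma 3.58.1 (lmFit, eBayes) in R 4.3.3 fitted all 26947 probe sets on 21 arrays, in 7 groups of clone and series, with Benjamini-Hochberg adjustment over all of them. The parkin against vector comparison used 6 clone means, with the first series shifted by V22 of the second minus V22 of the first. Its p-values measure the spread between clones. The prefix of the scanner file names was read as the array series, which is an assumption. The 50 neighbours are the nearest genes on the chromosome whose mean log2 value exceeded 7. The fits were tested on simulated data. For the comparison of 6 clone means, clones with the same construct were simulated without differences beyond array noise. It made many more false calls there than the other comparisons did, so its p-values may be too small. The measured clones do differ from each other, and how far the simulated outcome carries over to them was not tested. Precision is limited by the number of arrays. For the construct it is also limited by the 3 parkin and 3 vector clones and the link through V22 alone. Among the vector clones, V17 and V22 differed little and may not count as separate.

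All 10 members are named. From each list, the 3 genes with the smallest p in a parkin clone against V22 are named; CYLD, TNIP1, SHARPIN, CUL2 and CUL4A were chosen after their values were seen. The members and lists were chosen with earlier results of these data known. Of the listed genes, UBE2L3, UBE2D1, UBE2D2, UBE2D3, UBE2E3, SPATA2, RIPK1, NEDD8, UBE2M and UBE2F were not analysed here. Same-numbered arrays of different clones correlated at 0.0935 to 0.499 in the first series, against -0.369 to 0.176 for different numbers. Among parkin clones the values were -0.0451 to 0.513, against -0.527 to 0.473. In the first series 8 of 9 arrays correlated best with their own number, so its sets may be paired, and among parkin clones 4 of 9 did. The main fit did not take the set numbers as pairs, and results with them as a block are given beside it.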

Additional observations from a re-analysis of the deposited data

Results flagged for a closer look

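The RNF19A value of V22 set 4, 8.39, stood apart from the other V22 arrays, which read 8.61 to 8.66. Chance gives such a value in about 1 in 20 groups, and 10 were examined. Differences between parkin clones passed the threshold in limma for RNF144B, where PK7 minus PK19 was 1.22 and PK19 minus PK25 was -1.03. For RNF144A, PK7 minus PK19 was -0.68 and PK19 minus PK25 was 0.48. For RNF19A, PK7 minus PK25 was 0.36, and for RNF31, PK19 minus PK25 was -0.36.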

How the results depend on the processing

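Under alternatives to the processing, 967 of 1010 differences of single members kept their side of the threshold. A further 27 lost the call, 14 gained it and 2 reversed. Of the 967, 97 were uncalled small differences that changed sign. Most of the 1010 start from differences that the main fit did not call. Calls against V22 were kept in 6 of 16 settings for RNF19A and 7 of 16 for RNF31 in PK7. For RNF144A they were kept in 15 of 16 in PK7 and 14 of 16 in PK25. In PK19 RNF31 and RNF144B each kept theirs in 13 of 16. The RNF144B call in V8 was kept in 16 of 17. The reversed value was RNF31 in PK19, at 0.1211 with the neighbours' running median subtracted, with histone genes among the neighbours and also at 0.1211 without them (an alternative chosen after seeing the data). The count of called members in PK7 was 3, and became 5 after quantile normalization (RNF216 and RBCK1 added), 5 without the dimmest 30% of probe sets, 1 without the set 2 arrays and V22 set 5, and 0 with a 2-fold requirement. In PK19 it was 2, and became 0 with the neighbours subtracted, with or without histone genes, and 0 with the 2-fold requirement, which also left 0 in PK25 and 0 in V8. Leaving out single arrays gave 1 to 3 members in PK7, 2 to 2 in PK19, 0 to 1 in PK25, 1 to 2 in V8, 0 in V17 and 2 to 4 in the F test. RNF31 passed in V8 without V8 set 1 (-0.34), and the F test lost RNF31 and RNF19A without PK19 set 3. Using set numbers as a replicate block, the F test called 2 members in place of 4, losing RNF31 and RNF19A, V8 kept 1 and V17 had 0; of the arrays of the first series 8 of 9 correlated best with their own number, and 4 of 9 among parkin clones. With arrays of sets 1 to 3 as observations, a replicate block and no shift between series, parkin against vector clones called 2 members, RNF31 (-0.42) and RNF144A (-0.54). There the construct cannot be told apart from the series, and arrays of 1 clone count as replicates of the construct. The share of all probe sets called in that setting is not given here, so the 2 members cannot be set against it. Leaving out clones gave 0, as did the other alternatives. RNF144A kept its sign in 19 of 19 of these settings, from -0.66 to -0.32. RNF31 stood at 0.0093 there with the neighbours subtracted. For this comparison, the neighbour, set 2 and trended variance settings were also added after seeing the data.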
